A study of Mus musculus with 9 samples.

Results

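Transcripts of 47 genes of DNA replication and nucleotide synthesis were followed in G1E cells, mouse erythroid progenitors grown without a working Gata1 gene, whose product is the transcription factor that drives red cell maturation. The genes were chosen by symbol as parts of the replication machinery, and fall into origin licensing (9 genes), the replicative helicase (12), polymerases and primase (9), the sliding clamp and its loader (6), single-strand binding and Okazaki fragment maturation (5), nucleotide supply (4) and chromatin assembly (2). They make up 47 of the 27999 rows of the count table, and all 47 were among the 9978 mouse genes tested. The 3 groups were G1E cells spin-infected with the HMD vector carrying a human GATA1 mutant (called mutant here), the same vector carrying human wildtype GATA1, and the empty HMD vector, with 3 libraries each. All cells shared the Gata1-deficient background, a medium with serum, murine stem cell factor and erythropoietin, and virus produced in 293T cells. Both GATA1 forms are human proteins placed in mouse cells, and the sources used here give neither the amino acid change, the time after infection nor any selection of infected cells. Smart-seq2, which copies whole polyadenylated transcripts and does not record their strand, was used to make the libraries.

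Replication starts at origins that are marked by the origin recognition complex (ORC). In G1 the ORC, with Cdc6 and Cdt1, loads the ring-shaped MCM2-7 complex onto DNA, and geminin (Gmnn) blocks a second loading by holding Cdt1. In S phase Cdc45 and the 4 GINS subunits turn the MCM ring into an active helicase, after which primase, the DNA polymerases, the PCNA clamp and its RFC loader copy the strands. Flap endonuclease Fen1 and ligase Lig1 join the lagging-strand fragments, and ribonucleotide reductase (Rrm1, Rrm2), thymidylate synthase (Tyms) and thymidine kinase (Tk1) feed the fork with nucleotides. Many of these genes are known targets of the E2F factors, and erythroid progenitors pass through rapid S phases before they leave the cell cycle.

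Promoters are shown first for the genes called with wildtype GATA1 over the empty vector that had a RefSeq window, since the groups differ in a transcription factor. RefSeq promoter windows on GRCm38.p6 were matched by symbol for 39 of the 47 genes, and no match was had for Mcm4, Gmnn, Rfc2, Gins4, Gins1, Prim2, Pole and Gins2. Each line below gives the 250 bases before the first listed start, 5′ to 3′ on the gene's own strand, in lower case. Capitals mark E2F-type letters (TTTCCCGC or TTTGGCGC), the NF-Y box (CCAAT) or GATA letters (AGATAA or TGATAA), each searched on both strands. Orc1 lies at chr4:108579204-108579453 (plus), Orc2 at chr1:58505110-58505359 (minus), Cdc6 at chr11:98907901-98908150 (plus), Rfc4 at chr16:23127731-23127980 (minus), Fen1 at chr19:10204394-10204643 (minus) and Rfc1 at chr5:65335640-65335889 (minus). Mcm5 (chr8:75109259-75109508, plus) and Mcm6 (chr1:128359706-128359955, minus) are shown beside them as helicase genes not called in any comparison of the fit without a replicate block. A fit of the 6 mutant and wildtype libraries with that block called Mcm6 higher with the mutant. Of the other helicase genes with a window, Mcm7 and Gins3 had E2F-type letters, and Mcm2, Mcm3, Mcm10 and Cdc45 had none.
Orc1: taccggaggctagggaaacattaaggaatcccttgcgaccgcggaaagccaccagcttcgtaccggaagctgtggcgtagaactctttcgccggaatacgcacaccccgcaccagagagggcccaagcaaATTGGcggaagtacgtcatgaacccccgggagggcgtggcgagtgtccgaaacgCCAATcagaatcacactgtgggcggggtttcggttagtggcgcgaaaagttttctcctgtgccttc
Orc2: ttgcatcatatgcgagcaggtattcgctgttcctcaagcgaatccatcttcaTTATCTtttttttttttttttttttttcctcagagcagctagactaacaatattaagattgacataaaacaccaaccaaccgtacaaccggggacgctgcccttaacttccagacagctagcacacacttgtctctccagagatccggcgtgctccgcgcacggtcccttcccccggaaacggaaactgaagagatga
Cdc6: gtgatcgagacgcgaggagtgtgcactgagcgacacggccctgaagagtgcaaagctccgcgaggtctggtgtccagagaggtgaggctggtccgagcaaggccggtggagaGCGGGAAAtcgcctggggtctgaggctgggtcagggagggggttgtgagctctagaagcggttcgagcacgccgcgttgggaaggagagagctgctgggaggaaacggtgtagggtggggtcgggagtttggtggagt
Rfc4: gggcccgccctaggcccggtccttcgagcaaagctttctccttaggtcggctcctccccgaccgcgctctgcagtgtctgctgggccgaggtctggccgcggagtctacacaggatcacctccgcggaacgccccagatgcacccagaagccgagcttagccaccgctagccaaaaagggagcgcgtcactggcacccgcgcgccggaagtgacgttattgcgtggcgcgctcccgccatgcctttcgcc
Fen1: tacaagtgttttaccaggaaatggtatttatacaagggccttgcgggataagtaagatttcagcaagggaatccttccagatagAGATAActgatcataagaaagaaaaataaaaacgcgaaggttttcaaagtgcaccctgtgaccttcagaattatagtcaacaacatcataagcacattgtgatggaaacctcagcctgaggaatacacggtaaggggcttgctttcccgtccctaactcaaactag
Rfc1: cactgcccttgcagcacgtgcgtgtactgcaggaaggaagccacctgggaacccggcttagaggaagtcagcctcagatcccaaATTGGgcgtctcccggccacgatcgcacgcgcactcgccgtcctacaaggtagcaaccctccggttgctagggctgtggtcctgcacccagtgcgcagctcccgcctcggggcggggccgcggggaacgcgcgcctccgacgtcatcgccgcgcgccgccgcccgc
Mcm5: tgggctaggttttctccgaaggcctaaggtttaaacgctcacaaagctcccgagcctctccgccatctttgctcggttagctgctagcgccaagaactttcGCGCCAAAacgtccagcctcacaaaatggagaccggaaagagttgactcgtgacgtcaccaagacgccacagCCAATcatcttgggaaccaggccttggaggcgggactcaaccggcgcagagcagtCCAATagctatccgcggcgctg
Mcm6: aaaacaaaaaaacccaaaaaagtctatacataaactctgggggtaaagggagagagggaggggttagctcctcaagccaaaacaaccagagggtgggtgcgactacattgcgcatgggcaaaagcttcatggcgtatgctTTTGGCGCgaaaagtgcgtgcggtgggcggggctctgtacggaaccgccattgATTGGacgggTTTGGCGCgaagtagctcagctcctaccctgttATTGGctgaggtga

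Of the 39 promoters, 7 (17.9%) held an E2F-type match, against 1.35% of all 27025 promoters in the RefSeq table and 3% of the 7642 promoters of tested genes. These were Cdc6, Orc3, Mcm5, Mcm6, Mcm7, Gins3 and Pola1. The NF-Y box was in 22 of 39 (56.4%), against 34.5% of all promoters and 38.1% of those of tested genes, and GATA letters were in 3 of 39 (7.69%), against 17% of all promoters and 9.16% of those of tested genes. Among the 5 promoters of genes higher with wildtype GATA1, the E2F-type letters were in that of Cdc6, the NF-Y box in that of Orc1 and the GATA letters in those of Orc2 and Fen1, while that of Rfc4 held none of them. In Orc2 the GATA match began 198 bases before the start and in Fen1 166 bases before it. Orc2 and Fen1 each have a second listed start, and the matches depend on which start is used: the 250 bases before the second start held an NF-Y box and no GATA letters in Orc2 and none of the motifs in Fen1. The same holds for Mcm7, whose other window held an NF-Y box and no E2F-type letters. The NF-Y box of Orc4 and that of Pold2 were also not in all windows of these genes. No matches of different motifs overlapped in these windows. TTTCCCGC and TTTGGCGC were the only E2F-type letters searched. A window without them, such as that of Orc1, may hold other forms of the E2F site. A match is a run of letters and not a measured binding site.

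Libraries held 11364358 to 17289307 counts. Human GATA1 stood at 653, 706 and 598 CPM (counts scaled to the size of the library) with the mutant and at 816, 715 and 921 CPM with the wildtype, against 0, 2 and 0 counts with the empty vector, so the transgene was found in both GATA1 groups and near 0 in the empty vector group. This row does not tell the mutant form from the wildtype form. Every mutant library lay below every wildtype library in it, so the form and the level of GATA1 cannot be told apart when these groups are compared. The mouse Gata1 row had 508 to 881 counts in all 9 libraries; the sources used here do not say which part of the gene is disrupted, so this row does not check the background. Erythroid markers (11 genes) summed to 2970 to 3150 CPM with the mutant, 21000 to 28500 CPM with the wildtype and 1660 to 2060 CPM with the empty vector. Progenitor markers (7 genes, Kit and Gata2 among them) summed to 1140 to 1270, 486 to 616 and 1170 to 1400 CPM in the same order. The list was mixed: of the 6 tested, 4 were called lower and 1 higher with the wildtype over the empty vector. With the mutant over the wildtype, 4 were called higher and 1 lower. Granulocyte and monocyte markers (8 genes) reached at most 7.64 CPM in sum, with Elane and Ly6c2 at 0 in every library. Mast cell markers (8 genes) summed to 11.5 to 15.3 CPM with the mutant, 4.05 to 4.96 with the wildtype and 32.1 to 36.2 with the empty vector, with Mcpt8 and Tpsb2 at 0, and megakaryocyte markers (7 genes) to 44.8 to 49.7, 26.9 to 30.9 and 58.2 to 65.2 CPM, with Vwf at 0. The part of these markers in the results below was not tested, and in bulk RNA a change in the cells present and a change in RNA per cell cannot be told apart.

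Libraries also differed in their base composition, by transcript length and by replicate number. The median level of GC-rich genes relative to GC-poor genes (upper against lower quartile of the tested genes, as log2 deviation from the gene means) was 0.37, 0.34 and −0.09 in mutant replicates 1, 2 and 3, 0.14, 0.17 and −0.34 in wildtype replicates 1, 2 and 3, and −0.52, −0.31 and 0.25 in empty vector replicates 1, 2 and 3. Replicate 3 therefore stood apart in each group, lower in the mutant and wildtype groups and higher in the empty vector group. The same measure for long against short genes (quartiles of exon length) was 0.05, 0.01 and 0.29 in mutant replicates 1, 2 and 3. It was −0.27, −0.51 and 0.14 in the wildtype replicates and −0.04, 0.21 and 0.09 in the empty vector replicates. Fits with offsets for length and GC content are given below, and the cause of this skew was not tested. Mutant replicates 1 and 2 were the closest pair, with a chi-square per degree of freedom of 2.21 between their counts, against 15 to 55.7 for the other pairs within groups. They still differed by more than counting noise and were kept as 2 libraries. The series calls the libraries biological replicates, and the p-values below measure the spread between these libraries.

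Rrm2 and the helicase subunits Mcm3, Mcm5 and Mcm6 had the highest levels of these transcripts per length of exon. Over the 9 libraries Mcm3 ran from 301 to 409 CPM per kb of exon, Mcm6 from 308 to 398 and Mcm5 from 268 to 350, while Mcm4, Mcm7 and Mcm2 ran from 154 to 206, 148 to 189 and 130 to 186. The ORC genes, whose products load these rings, were lower: Orc6 had 57.9 to 89.3, Orc2 42.8 to 91, Orc3 30 to 36.4, Orc1 17.7 to 28.6, Orc5 17.1 to 27.4 and Orc4 7.91 to 19.6 CPM per kb. The ranges of Mcm3, Mcm5 and Mcm6 overlapped each other, and the lowest MCM value lay above the highest ORC value. Among the GINS subunits, Gins4 had 50.2 to 95.4 CPM per kb, Gins1 31.6 to 47.5, Gins2 16.1 to 35.3 and Gins3 15.4 to 19.2. Cdc45 had 51.3 to 67.1. Exon length merged all annotated exons of a gene, 1349 bases for Gins4 and 4097 for Gins2. Before this scaling both genes had close mean CPM: 77.7 and 78.1 with the mutant, 119.6 and 114.2 with the wildtype, and 75.9 and 75.8 with the empty vector. Their gap per kb thus reflects the lengths, and ranks per kb depend on this choice of length. Rrm2, the small subunit of ribonucleotide reductase, had 385 to 555 CPM per kb.

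**Figure D1:**
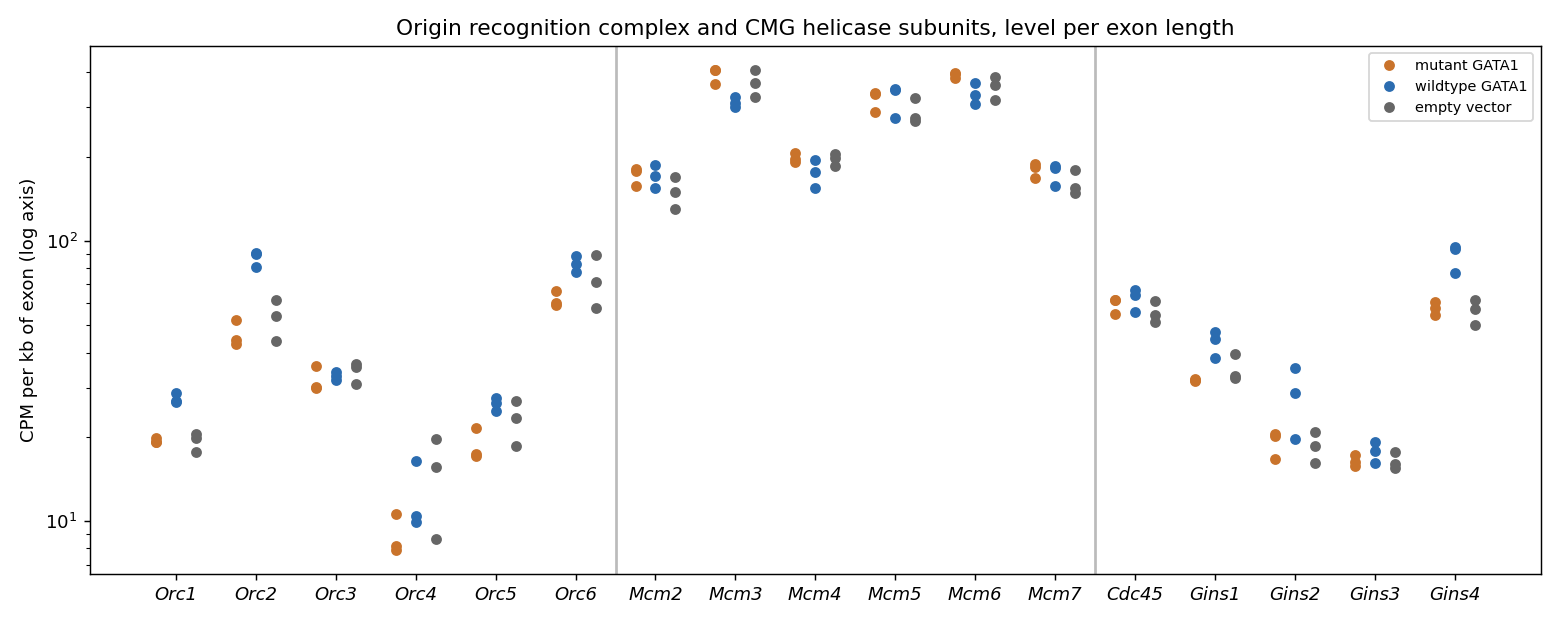
Level of ORC, MCM2-7, Cdc45 and GINS transcripts in CPM per kb of exon (vertical log axis), with each point a library of the mutant, wildtype or empty vector group. The MCM points lie between 130 and 409, above all ORC points, and the wildtype points of Orc1, Orc2 and Gins4 lie above those of both other groups.

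The comparison of wildtype GATA1 with the empty vector asks what restoring GATA1 does to replication transcripts. Wildtype GATA1 raised Orc1, Orc2 and Cdc6 of origin licensing, Gins2 and Gins4 of the helicase, the clamp loader subunit Rfc4 and the flap endonuclease Fen1, by 1.33-fold to 1.65-fold, and lowered the largest clamp loader subunit, Rfc1, 1.40-fold. The 6 MCM2-7 subunits, all 9 polymerase and primase genes, the 4 nucleotide supply genes and both chromatin assembly genes had no call. In edgeR's quasi-likelihood test with Benjamini-Hochberg adjustment over all tested genes, 7 of 47 genes were called higher (14.9%) and 1 lower (2.13%) at an adjusted p under 0.05, where 11.4% of all tested genes were called higher and 11.9% lower. The share higher was thus close to that of all genes. The median log2 fold change of the 47 genes was 0.12, against −0.04 for all tested genes, and 33 of the 47 had a positive value. At an unadjusted p under 0.05 there were 13 higher and 1 lower, or 29.8% of the genes against 36.5% of all tested genes. Wildtype and empty vector libraries were fully apart for 9 genes (19.1%), against 32.6% of all tested genes.

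In origin licensing 3 of 9 genes were called, all higher with the wildtype. Orc2, an ORC subunit (chromosome 1, 58462771 to 58505109, minus strand), had 312, 351 and 348 CPM with wildtype GATA1, against 237, 209 and 169 CPM with the empty vector. All wildtype libraries lay above all empty vector libraries, and the log2 fold change was 0.72 ± 0.14 (SE; adjusted p 0.00203 in edgeR), or 1.65-fold with a 95% interval of 1.34 to 2.02. Orc1, an ORC subunit that binds and hydrolyses ATP (chromosome 4, 108579423 to 108614833, plus strand), had 93.2, 99.5 and 92.3 CPM with the wildtype, against 71.1, 69.1 and 61.6 CPM with the empty vector (0.50 ± 0.11, adjusted p 0.00504 in edgeR). Cdc6, the licensing ATPase (chromosome 11, 98907801 to 98923940, plus strand), had 267, 234 and 268 CPM, against 170.4, 197 and 188 CPM (0.47 ± 0.11, adjusted p 0.0068 in edgeR). Neither gene's groups overlapped. Of the other 6 licensing genes, Orc5 and Orc6 had log2 fold changes of 0.20 and 0.19, Cdt1 0.09, Gmnn 0.10 and Orc3 −0.05, with no call. Orc4 had −0.25, with an interval of −0.82 to 0.32 that reflects its wide spread: 74.1, 78 and 122 CPM with the wildtype, against 146, 116 and 64.3 CPM with the empty vector. The summed level of the 9 licensing genes was 1874 to 1955 CPM with the wildtype and 1459 to 1767 CPM with the empty vector.

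Within the helicase the GINS subunits and the MCM ring differed in their calls. Gins4 (chromosome 8, 23226616 to 23237659, minus strand) had 126, 129 and 104 CPM with wildtype GATA1, against 83.1, 67.7 and 77.1 CPM with the empty vector (0.66 ± 0.12, adjusted p 0.00206 in edgeR), without overlap. Gins2 had 117, 145 and 80.6 CPM, against 85, 66 and 76.3 CPM (0.59 ± 0.19, adjusted p 0.0355 in edgeR), and here wildtype replicate 3 lay below the highest empty vector library. Gins1 had 0.31 (adjusted p 0.0933 in edgeR) and Gins3 0.12. The MCM2-7 genes had log2 fold changes between −0.23 (Mcm3) and 0.19 (Mcm2), and all 6 of their 95% intervals lay within 1.5-fold in either direction. Those of Mcm2 (−0.09 to 0.47) and Mcm3 (−0.48 to 0.02) reached furthest from 0. Mcm6 had 1713, 1435 and 1554 CPM with the wildtype, against 1486, 1682 and 1798 CPM with the empty vector, and the groups overlapped. The intervals of Mcm10 (−0.29 to 0.18) and Cdc45 (−0.09 to 0.42) also included no change.

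The clamp loader showed opposite calls for subunits of the same complex. Rfc4, a small subunit (chromosome 16, 23113943 to 23127737, minus strand), had 232, 235 and 192 CPM with wildtype GATA1, against 170.3, 141 and 141 CPM with the empty vector, and the groups did not overlap (0.54 ± 0.12, adjusted p 0.00541 in edgeR). Rfc1, the large subunit (chromosome 5, 65261850 to 65335670, minus strand), had 119, 99.5 and 130.1 CPM, against 147, 179 and 163 CPM, again without overlap (−0.49 ± 0.12, adjusted p 0.0127 in edgeR). Rfc2, Rfc3 and Rfc5 had 0.28, 0.00 and 0.18 and Pcna, the clamp itself, 0.14, with no call. Fen1, which trims the flaps of Okazaki fragments, had 575, 556 and 482 CPM with the wildtype, against 362, 409 and 443 CPM with the empty vector (0.41 ± 0.12, adjusted p 0.0229 in edgeR), without overlap. Rpa3, the smallest subunit of the single-strand binding protein, had 120.2, 130.3 and 108 CPM, against 112.5, 86.9 and 72 CPM (0.40 ± 0.16, adjusted p 0.0921 in edgeR). Rpa1, Rpa2 and Lig1 had values between −0.02 and 0.11.

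No polymerase or primase gene was called. Their log2 fold changes ran from −0.27 (Pola1, the catalytic subunit of polymerase alpha, adjusted p 0.21 in edgeR) to 0.22 (Prim1), and 8 of 9 had an interval within 1.5-fold. All 4 nucleotide supply genes had positive values, 0.36 for Tk1, 0.33 for Tyms, 0.23 for Rrm2 and 0.10 for Rrm1, and none passed (smallest adjusted p 0.0923 in edgeR, for Tyms). Tyms had 321, 389 and 275 CPM with the wildtype, against 287, 238 and 260.4 CPM with the empty vector, and the groups overlapped. Chaf1b, a subunit of the CAF-1 histone chaperone, had 174.5, 168 and 142 CPM, against 135, 127 and 136 CPM, without overlap (0.28 ± 0.11, adjusted p 0.089 in edgeR), and Chaf1a had −0.09.

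Orc1, Orc2, Cdc6, Gins4 and Rfc4 were called higher with the wildtype under all 19 alternatives tried. Leaving out replicate 1 or 2 of the wildtype, or replicate 1 or 2 of the empty vector, ended the call of Fen1, as did a fit of only the 6 libraries and a fit with the replicate number as a block. The call of Gins2 ended when mutant replicate 2, wildtype replicate 1 or 2, or empty vector replicate 2 or 3 was left out, in a fit of only the 6 libraries and with mutant replicates 1 and 2 summed, and that of Rfc1 when replicate 1 or 2 of the wildtype or replicate 2 of the empty vector was left out. Adjusted p-values in edgeR or DESeq2 over the alternatives ran from 0.00321 to 0.0924 for Fen1, from 0.00188 to 0.169 for Gins2 and from 0.00398 to 0.0756 for Rfc1. Without wildtype replicate 3, 12 of the 47 genes were called higher (25.5%, against 16% of all tested genes), and with offsets for transcript length and GC content 15 were (31.9%, against 18.4%). The genes added in both of these fits were Tyms, Tk1, Rfc2 and Chaf1b.

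**Figure D2:**
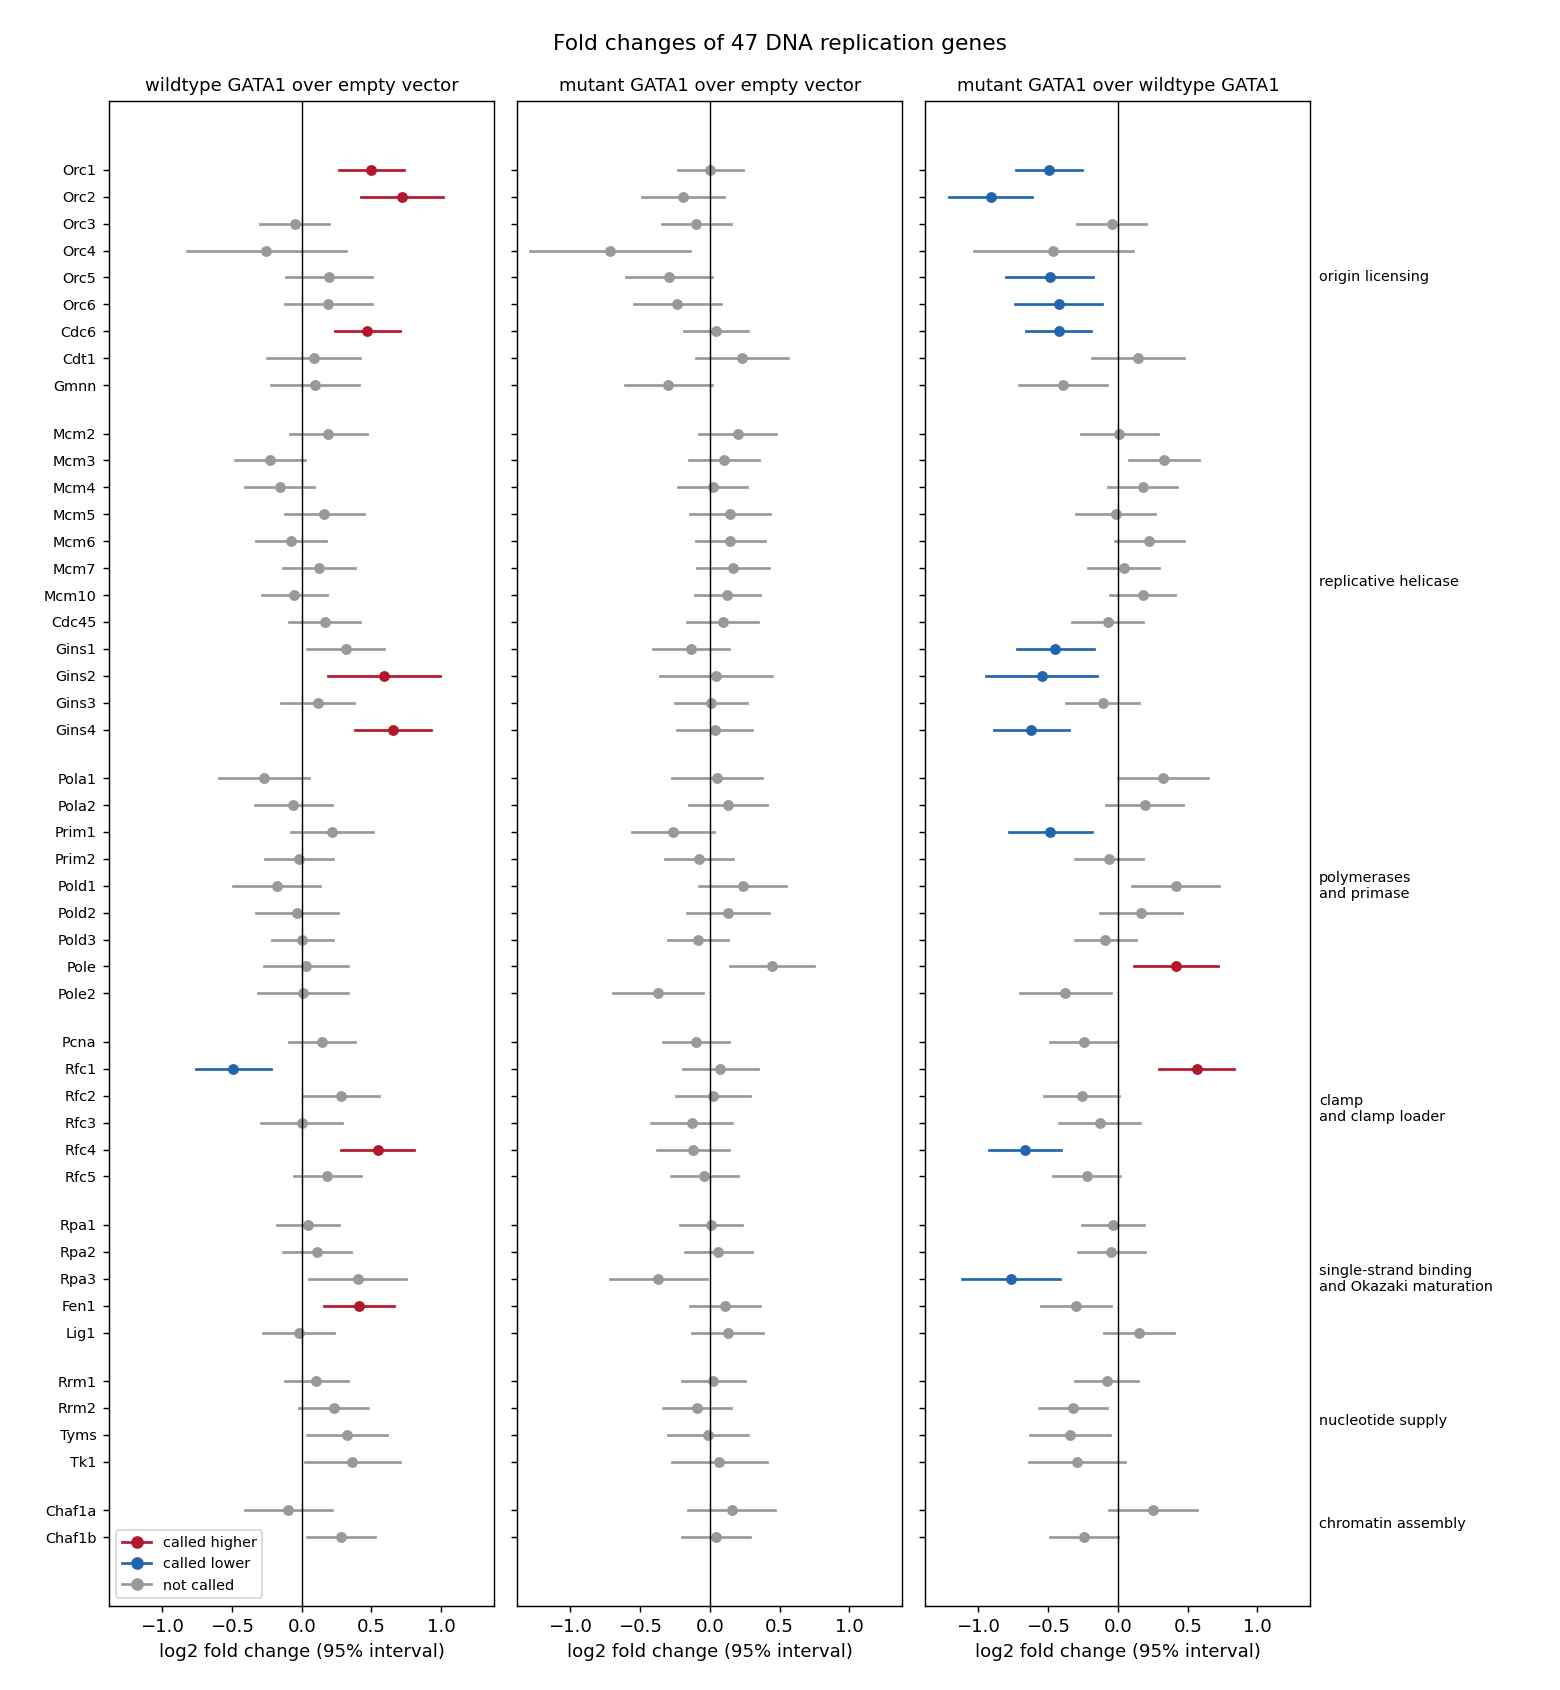
Log2 fold change with 95% interval (horizontal axis) of the 47 genes, grouped by role, for wildtype over empty vector, mutant over empty vector and mutant over wildtype. Red marks genes called higher, blue genes called lower and grey no call: 7 red and 1 blue in the left panel, none in the middle panel, and 2 red and 11 blue in the right panel.

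The comparison of the mutant with the empty vector asks whether the mutant keeps any of these effects. With the mutant, 0 of the 47 genes were called in edgeR and 0 in DESeq2, and 4 had an unadjusted p under 0.05 (8.51%, against 12.9% of all tested genes). Few genes were called anywhere in this comparison, 0.271% of those tested. Libraries of the groups were fully apart for 3 genes (6.38%: Pole higher, Gins1 and Rfc4 lower), against 15% of all tested genes. The median log2 fold change of the 47 genes was 0.03, against −5e-04 for all tested genes, and 41 of 47 had a 95% interval within 1.5-fold in either direction.

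The 5 genes raised by the wildtype in every fit stood near the empty vector level with the mutant. Orc1 had 66.8, 66.5 and 69 CPM with the mutant, against 71.1, 69.1 and 61.6 CPM with the empty vector, a log2 fold change of 0.00 with an interval of −0.23 to 0.24. Cdc6 had 186.5, 188 and 198 CPM, against 170.4, 197 and 188 CPM (0.05, interval −0.19 to 0.28). Gins4 had 81.7, 77.9 and 73.6 CPM, against 83.1, 67.7 and 77.1 CPM (0.03, interval −0.24 to 0.30). The groups overlapped for all 3 genes. Orc2 had 165, 171 and 202 CPM, against 237, 209 and 169 CPM (−0.19, interval −0.49 to 0.10), and Rfc4 had 139, 138 and 138 CPM, against 170.3, 141 and 141 CPM (−0.12, interval −0.38 to 0.14). The groups overlapped for Orc2 and lay just apart for Rfc4. Mcm2 had the smallest p of the helicase genes (0.20, adjusted p 0.499 in edgeR), and all 6 MCM2-7 genes had intervals within 1.5-fold. The mutant and the wildtype share their empty vector libraries, so these values are not independent of those of the wildtype.

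The 4 genes with an unadjusted p under 0.05 were Pole, Orc4, Pole2 and Rpa3. Pole, the catalytic subunit of polymerase epsilon, had 113, 106 and 127 CPM with the mutant, against 73.2, 80.6 and 100.2 CPM with the empty vector (0.45 ± 0.14, adjusted p 0.304 in edgeR), without overlap. Orc4 had 59, 60.9 and 79.3 CPM, against 146, 116 and 64.3 CPM (−0.71 ± 0.26, adjusted p 0.345 in edgeR). Pole2, the second subunit of polymerase epsilon, had 61.3, 60.3 and 65 CPM, against 94.7, 85.3 and 61.3 CPM (−0.37 ± 0.15, adjusted p 0.357 in edgeR), and Rpa3 had 63, 66.9 and 80.3 CPM, against 112.5, 86.9 and 72 CPM (−0.37 ± 0.16, adjusted p 0.379 in edgeR). In the 3 genes with negative values, empty vector replicate 3 was the lowest of its group and lay inside the mutant range. Without that library Pole was called higher and Orc4 and Pole2 lower, while calls over all tested genes numbered 227 higher (2.25%) and 610 lower (6.05%), against 21 and 6 with it.

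The fold changes of the mutant followed the GC content of the transcripts. Across the 47 genes the Spearman correlation of log2 fold change with the GC content of the longest transcript was 0.75, and it was 0.57 over 9658 tested genes with an annotation; genes are not independent replicates, and all of them share the same 6 libraries. Of the 16 replication genes richest in GC (50.6% to 61% GC), 15 had positive values, with a median of 0.13, and of the 16 poorest (34.2% to 46% GC), 13 had negative values, with a median of −0.13. With offsets for length and GC content, Rpa3, the poorest in GC at 34.2%, had 0.25 in place of −0.37, Rfc4 0.16 in place of −0.12, Rrm2 0.07 in place of −0.09 and Chaf1a −0.02 in place of 0.16. For the wildtype over the empty vector the same correlation was 0.02 across the 47 genes, and that with exon length was −0.39. Over the 9658 tested genes with an annotation they were 0.15 and −0.23. For the mutant over the wildtype the correlations across the 47 genes were 0.37 with GC content and 0.45 with exon length. Over the tested genes with an annotation they were 0.18 and 0.27, so trends of the same sign ran through the whole table.

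**Figure D3:**
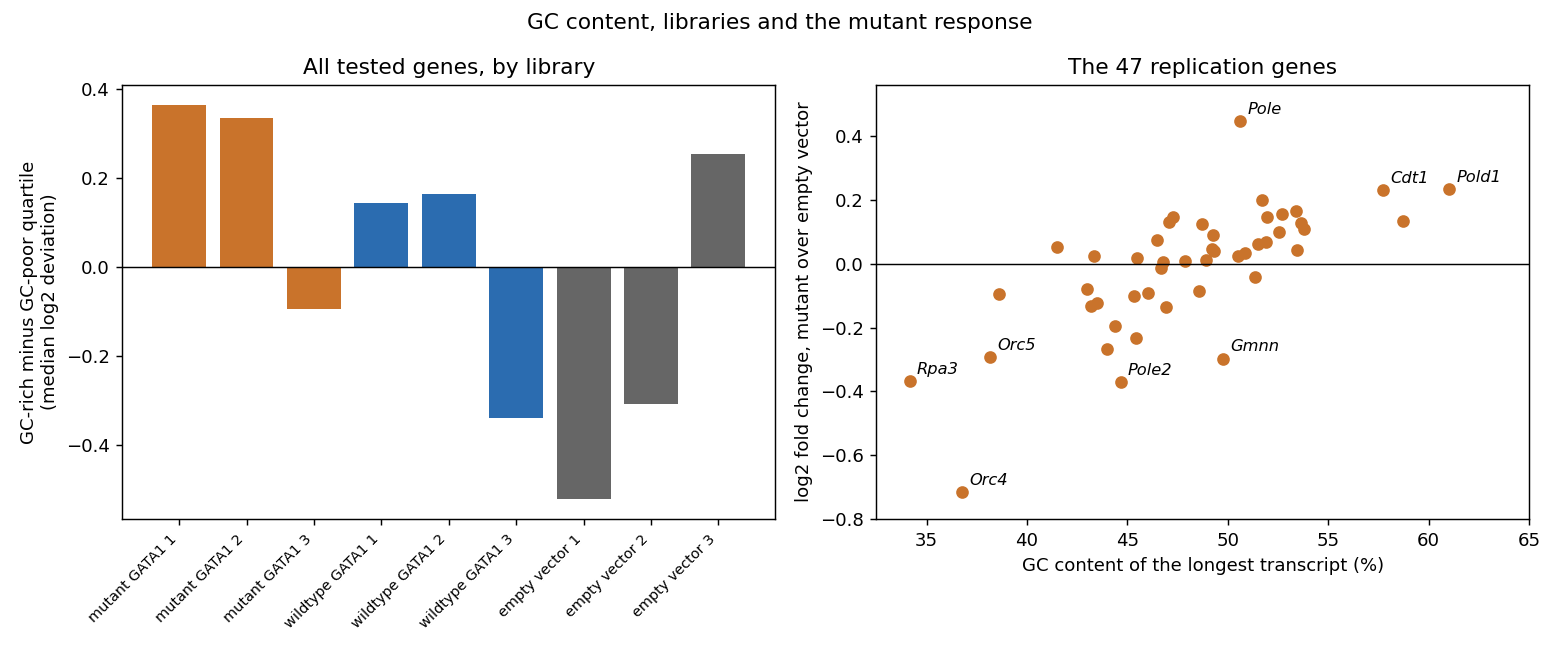
Left, median log2 deviation of GC-rich minus GC-poor genes in each library (bars, all tested genes); right, log2 fold change of mutant over empty vector of the 47 genes (vertical axis) against GC content in percent (horizontal axis). Mutant replicates 1 and 2 stand at 0.37 and 0.34 and empty vector replicates 1 and 2 at −0.52 and −0.31, and the points on the right run from Orc4 and Rpa3 at low GC to Pold1 and Pold2 at high GC.

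The direct comparison of mutant with wildtype GATA1 asks where the mutant group differs from the wildtype group. It uses the same wildtype libraries as the comparison of wildtype with the empty vector, so its values are not independent of those. The transgene level also differed between the mutant and wildtype groups, as given above. With the mutant, 5 of 9 licensing genes (Orc1, Orc2, Orc5, Orc6, Cdc6), 3 of 4 GINS subunits (Gins1, Gins2, Gins4), Prim1, Rfc4 and Rpa3 were lower, by 1.34-fold to 1.88-fold, and Rfc1 and Pole were higher, by 1.48-fold and 1.33-fold. The MCM2-7, nucleotide supply and chromatin assembly genes had no call in this fit, which has no block. In edgeR's quasi-likelihood test 11 of 47 genes were lower (23.4%) and 2 higher (4.26%), where 12.7% of all tested genes were called lower and 13.2% higher. The median log2 fold change of the 47 genes was −0.11, against −0.01 for all tested genes, and 32 had a negative value. Mutant and wildtype libraries were fully apart for 23 genes (48.9%, 17 lower and 6 higher), against 44.2% of all tested genes (20.9% lower and 23.3% higher). At an unadjusted p under 0.05 there were 17 lower and 5 higher, 46.8% of the genes against 39.1% of all tested genes. Same-numbered mutant and wildtype libraries deviated together, and a fit of these 6 libraries with the replicate number as a block called 22 genes lower (46.8%, against 24.5% of all tested genes) and 7 higher (14.9%, against 23.6%). It held all 13 calls of the fit without the block. It added Mcm3, Mcm6, Pola1, Pold1 and Chaf1a as higher, and Orc4, Gmnn, Pole2, Pcna, Rfc2, Rfc5, Fen1, Rrm2, Tyms, Tk1 and Chaf1b as lower, so MCM2-7, nucleotide supply and chromatin assembly genes were called there. The standard errors and adjusted p-values below are from the fit without the block.

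Among the licensing genes Orc2 differed most. It had 165, 171 and 202 CPM with the mutant, against 312, 351 and 348 CPM with the wildtype (−0.91 ± 0.14, adjusted p 0.000421 in edgeR), and the highest mutant library lay well below the lowest wildtype library. Orc1 had 66.8, 66.5 and 69 CPM, against 93.2, 99.5 and 92.3 CPM (−0.49 ± 0.11, adjusted p 0.00562 in edgeR), and Cdc6 186.5, 188 and 198 CPM, against 267, 234 and 268 CPM (−0.43 ± 0.11, adjusted p 0.0121 in edgeR). Orc5 and Orc6, which had no call against the empty vector with either protein, were lower with the mutant than with the wildtype. Orc5 had 105.6, 107 and 133 CPM, against 153, 163 and 169 CPM (−0.49 ± 0.14, adjusted p 0.0253 in edgeR), and Orc6, the least conserved ORC subunit, 146.5, 149 and 164 CPM, against 192, 219 and 205 CPM (−0.42 ± 0.14, adjusted p 0.0468 in edgeR). Neither gene's groups overlapped. Gmnn had 203, 206 and 221 CPM, against 272, 291 and 265 CPM (−0.39 ± 0.15, adjusted p 0.0625 in edgeR). The summed level of the licensing genes was 1444 to 1555 CPM with the mutant and 1874 to 1955 CPM with the wildtype.

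The GINS genes followed the same order. Gins4 had 81.7, 77.9 and 73.6 CPM with the mutant, against 126, 129 and 104 CPM with the wildtype (−0.62 ± 0.12, adjusted p 0.0032 in edgeR). Gins1 had 47.9, 48.3 and 48.8 CPM, against 67.8, 72 and 58.1 CPM (−0.45 ± 0.13, adjusted p 0.0216 in edgeR), and neither of these overlapped between the groups. Gins2 had 83.7, 82.2 and 68.4 CPM, against 117, 145 and 80.6 CPM (−0.55 ± 0.19, adjusted p 0.0454 in edgeR), and wildtype replicate 3 lay within the mutant range. Gins3 had −0.11 with no call. The MCM2-7 genes ran from −0.02 (Mcm5) to 0.33 (Mcm3), and Mcm3 had 1533, 1529 and 1370 CPM, against 1230, 1173 and 1129 CPM, without overlap (0.33 ± 0.12, adjusted p 0.0535 in edgeR).

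Rfc4 and Rfc1 went in opposite directions here too, which is not an independent result because the wildtype libraries are shared. Rfc4 had 139, 138 and 138 CPM with the mutant, against 232, 235 and 192 CPM with the wildtype (−0.67 ± 0.12, adjusted p 0.00154 in edgeR), and Rfc1 163, 172 and 179.6 CPM, against 119, 99.5 and 130.1 CPM (0.56 ± 0.12, adjusted p 0.0059 in edgeR). Rpa3 had 63, 66.9 and 80.3 CPM, against 120.2, 130.3 and 108 CPM (−0.77 ± 0.16, adjusted p 0.00441 in edgeR). The groups did not overlap for any of these 3 genes. Prim1, the catalytic subunit of primase, had 119.7, 126 and 119.6 CPM, against 165, 188 and 158 CPM (−0.48 ± 0.14, adjusted p 0.0209 in edgeR), and Pole 113, 106 and 127 CPM, against 82.9, 79.6 and 97 CPM (0.42 ± 0.14, adjusted p 0.0432 in edgeR), both without overlap. Pold1, the catalytic subunit of polymerase delta, missed the threshold at 0.41 ± 0.14 (adjusted p 0.0515 in edgeR), as did Rrm2 at −0.32 ± 0.11 (0.0533) and Fen1 at −0.30 ± 0.12 (0.075). Chaf1b had −0.24 ± 0.11 (adjusted p 0.131 in edgeR).

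Orc1, Orc2, Gins4 and Rfc1 were called under all 20 alternatives of this comparison, and Rfc4 under 19 of them (adjusted p 0.0686 with length and GC offsets and the replicate block). Rpa3 lost its call with length and GC offsets (−0.18, adjusted p 0.45 in edgeR), as did Gins1 and Pole. The calls of Orc5, Orc6, Cdc6, Gins1, Gins2, Prim1 and Pole were each lost without mutant replicate 1 and without mutant replicate 2, and also with those libraries summed into 1. Other libraries ended calls too: that of Orc6 ended with the loss of mutant replicate 3, of any 1 wildtype library or of empty vector replicate 2, those of Gins2 and Pole ended when mutant replicate 3, wildtype replicate 1 or 2, or empty vector replicate 2 was left out, and that of Gins1 when mutant replicate 3 or wildtype replicate 1 or 2 was. The replicate block in all 9 libraries ended the calls of Orc5, Orc6 and Gins2. The call of Cdc6 also needed wildtype replicate 1, that of Orc5 wildtype replicate 2, and that of Prim1 both mutant replicate 3 and wildtype replicate 2. Without wildtype replicate 3, 16 genes were lower (34%, against 15.6% of all tested genes).

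**Figure D4:**
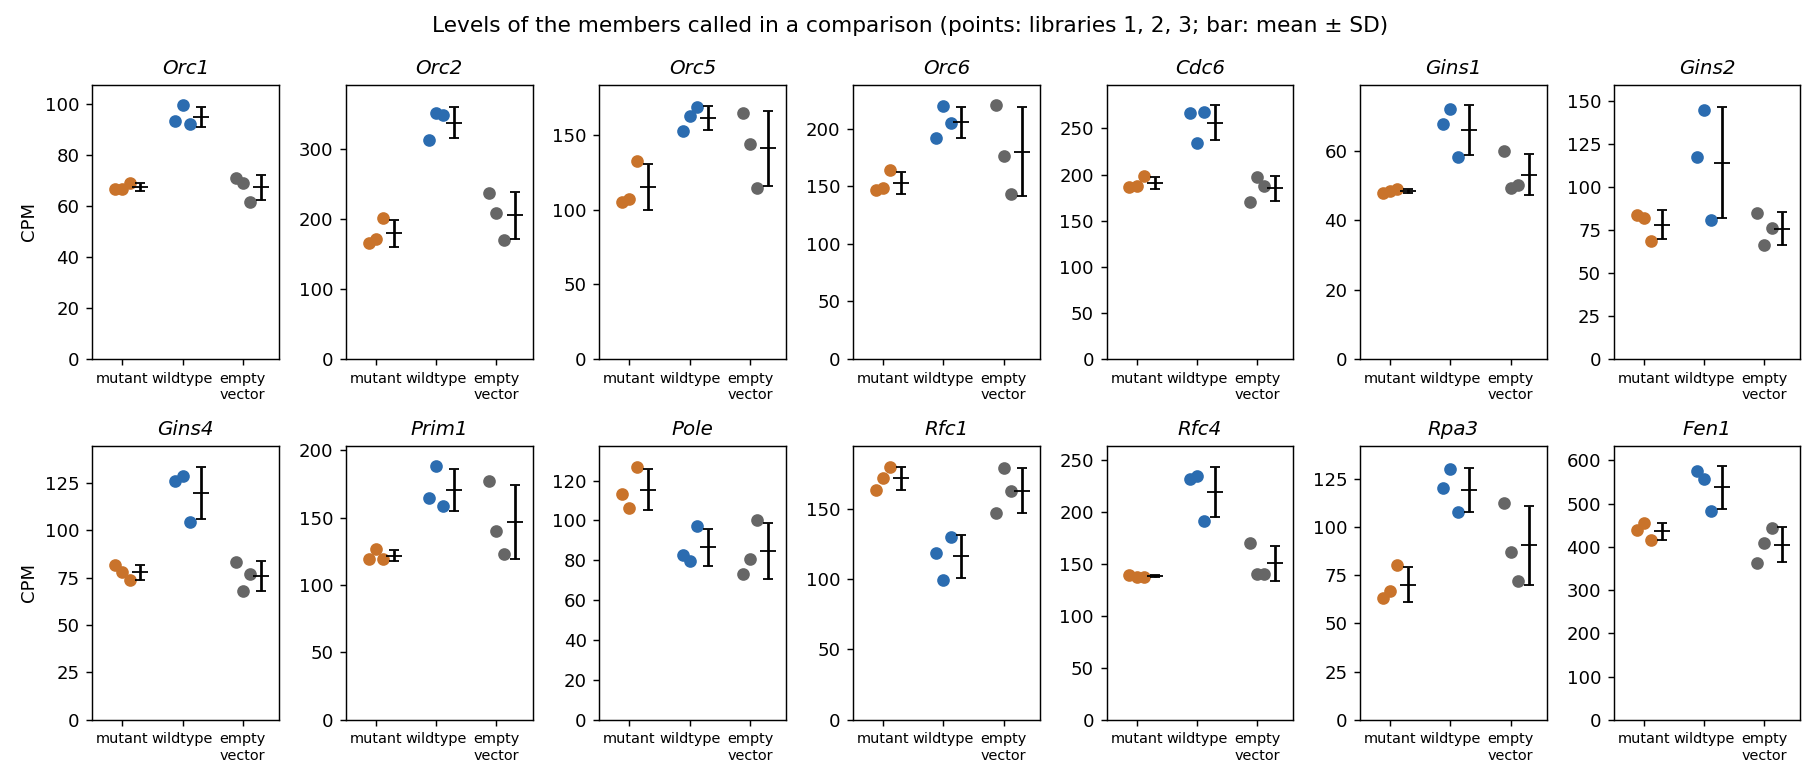
CPM of the 14 genes called in at least 1 comparison (vertical axis from 0) in the mutant, wildtype and empty vector groups; points are replicates 1, 2 and 3 from left to right, and bars show mean ± SD (n = 3). Wildtype points of Orc1, Orc2, Cdc6, Gins4, Rfc4 and Fen1 lie above those of both other groups, and those of Rfc1 lie below.

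**Figure D5:**
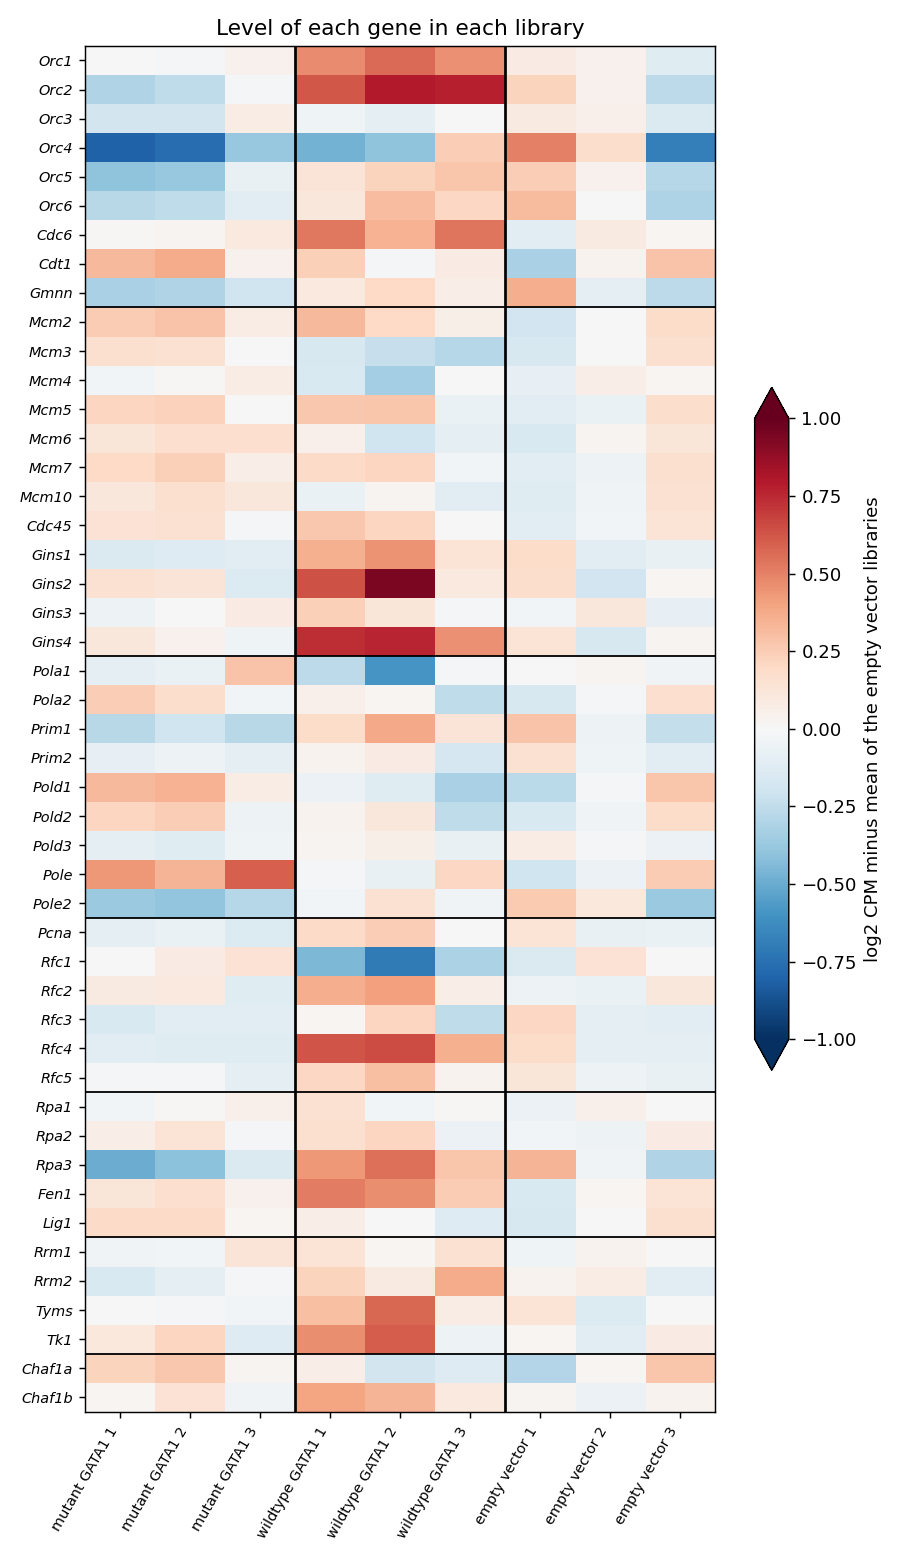
Log2 CPM of the 47 genes in each of the 9 libraries, relative to the mean of the empty vector libraries, with genes in rows by role and libraries in columns. Orc2, Gins4 and Rfc4 are red in all wildtype columns, Rfc1 is blue there, and Orc4 and Gmnn change colour within the empty vector columns.

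Genes around this machinery were read from 3 further lists. Of 13 origin firing kinases and fork protection genes, 0 were called with the wildtype over the empty vector in edgeR and 1 in DESeq2. The shares of all tested genes called were 23.3% in edgeR and 26% in DESeq2. At an unadjusted p under 0.05 there were 2 of the 13 (15.4%, against 36.5% of all tested genes). Donson had the largest value, 0.57 (adjusted p 0.0593 in edgeR). Of 18 genes of the E2F family, pocket proteins and S phase cyclins, 3 rose (16.7%) and 2 fell (11.1%), shares near the 11.4% and 11.9% of all tested genes. Ccne1, cyclin E1, which brings cells into S phase, had 304, 309.8 and 263 CPM with the wildtype, against 83.9, 81.1 and 92.1 CPM with the empty vector (1.77 ± 0.11, adjusted p 1.83e-07 in edgeR), a larger change than that of any of the 47 genes. E2f2, an activating E2F factor, had 76.7, 60.2 and 69.9 CPM, against 23, 30.8 and 28.3 CPM (1.33 ± 0.14, adjusted p 2.23e-05 in edgeR). Ccna2, cyclin A2, had 677, 626 and 665 CPM, against 433, 483 and 458 CPM (0.52 ± 0.10, adjusted p 0.00261 in edgeR), and the groups of all 3 genes were apart. The falls were those of the pocket protein Rbl2 (−0.40), called in 7 of 19 alternatives, and the kinase Cdk2 (−0.32), called in 5 of 19, and both calls were lost without mutant replicate 1 or 2, without wildtype replicate 1 or 2 and without empty vector replicate 2. That of Rbl2 was lost without empty vector replicate 1 too, and that of Cdk2 without replicate 3 of any group.

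Of 27 other nucleotide synthesis genes, 1 rose (3.7%) and 4 fell (14.8%) with wildtype GATA1, against 11.4% and 11.9% of all tested genes. Ctps2, a CTP synthase, had 21.3, 19.6 and 17.5 CPM with the wildtype, against 52.4, 45.1 and 50.2 CPM with the empty vector (−1.34 ± 0.13, adjusted p 1.01e-05 in edgeR). Shmt1, which charges folate for thymidylate synthesis, had 97.8, 104.9 and 83.4 CPM, against 156.5, 162.5 and 168 CPM (−0.77 ± 0.11, adjusted p 0.000323 in edgeR), and Tk2, the mitochondrial thymidine kinase, had −0.57 ± 0.12 (adjusted p 0.00513 in edgeR). Adss had −0.49 ± 0.13 and Dck, deoxycytidine kinase, 0.67 ± 0.18. The groups did not overlap for any of these 5 genes. The call of Adss ended when replicate 1 or 2 of the wildtype, or replicate 1 or 2 of the empty vector, was left out. The call of Tk2 was lost without wildtype replicate 1 (adjusted p 0.000611 to 0.0504 over the alternatives).

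With the mutant over the empty vector, 0 of these 58 genes were called in edgeR and 0 in DESeq2, and 8 had an unadjusted p under 0.05 (13.8%, against 12.9% of all tested genes, of which 0.271% were called). Against the wildtype, the mutant had lower Ccne1 (92, 94.2 and 90.5 CPM, against 304, 309.8 and 263 CPM, −1.66 ± 0.11, adjusted p 3.91e-07 in edgeR), E2f2 (36.2, 36.8 and 37.7 CPM, against 76.7, 60.2 and 69.9 CPM, −0.90 ± 0.14, adjusted p 0.000528) and Ccna2 (−0.45 ± 0.10, adjusted p 0.00669), and higher Rbl2 (0.41 ± 0.13, adjusted p 0.031). Among nucleotide synthesis genes it had higher Ctps2 (1.30 ± 0.13), Shmt1 (0.65 ± 0.11), Atic (0.41), Cad (0.53), Umps (0.31) and Gart (0.32), and lower Dck (−0.94 ± 0.18) and Dtymk (−0.46). Of all 58 genes 8 were called higher (13.8%) and 7 lower (12.1%), near the 13.2% and 12.7% of all tested genes. Ctps2, Shmt1, Dck, Ccne1, E2f2 and Ccna2 kept their calls in all 20 alternatives. The calls of Atic, Cad, Umps, Gart, Dtymk and Rbl2 held in 14, 10, 9, 7, 14 and 13 of 20, and each ended without mutant replicate 1, without wildtype replicate 1 and with mutant replicates 1 and 2 summed. Leaving out mutant replicate 2 ended all of these but Rbl2, and leaving out mutant replicate 3 or wildtype replicate 2 ended all but Atic. Empty vector replicate 2 decided those of Cad, Umps, Gart and Rbl2, and wildtype replicate 3 those of Umps and Gart. Length and GC offsets, with or without the block, ended the calls of Atic, Cad and Gart. RLE factors ended those of Cad, Umps and Gart, and the block in all 9 libraries those of Umps, Gart and Rbl2. Without the low-count filter those of Umps and Gart were lost. Cad and Umps act in pyrimidine synthesis and Gart and Atic in purine synthesis. Of the fork protection genes, Timeless was higher (0.40 ± 0.13, adjusted p 0.033 in edgeR) and its partner Tipin (−0.56 ± 0.15, adjusted p 0.0156) and Donson (−0.70 ± 0.20, adjusted p 0.025) lower. The calls of all 3 ended when replicate 1 or 2 of the mutant was left out, that of Donson also when replicate 1 or 3 of the wildtype was, and that of Timeless when mutant replicate 3, wildtype replicate 1 or 2, or empty vector replicate 2 was left out. With length and GC offsets Timeless and Tipin had no call, and their adjusted p-values over the alternatives ran from 0.00118 to 0.169 and from 2.55e-05 to 0.115.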

How the data were processed

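Raw read counts per gene were deposited by the authors as a table of 27999 rows (27998 mouse genes and human GATA1) for 9 libraries. Per the submitters' processing notes, STAR and the builds GRCm38.p4 and hg19 were used; no source used here names the STAR version, the counting tool or the annotation, so how reads of near-identical copies and of overlapping antisense genes were counted is unknown. Library totals were 11364358 to 17289307 counts. No depth, batch or strand label was given.

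Genes were filtered with edgeR's filterByExpr, which left 9978 mouse genes, and library sizes were scaled by TMM. One quasi-likelihood model over all 9 libraries (edgeR 4.0.16, limma 3.58.1, R 4.3.3; 6 residual degrees of freedom) gave 3 comparisons, each with Benjamini-Hochberg adjustment over all tested genes and a threshold of 0.05. Standard errors and 95% intervals were derived from the F statistics, and the fits were tested on simulated data. CPM used the TMM-scaled sizes, and human GATA1 used library totals. Heatmap values used no prior count, and the log2 deviations and correlations between libraries used a prior count of 2. Exon length and GC content came from GENCODE M21 on GRCm38 and were found for 96.8% of tested genes. Exon length merged the exons of all annotated transcripts of a gene, and GC content was that of its longest transcript. Motifs were searched in the 250 bases before each RefSeq start.

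The replicate numbers come from the library titles. The deviations of same-numbered mutant and wildtype libraries from their group means correlated at 0.171, 0.286 and 0.533, each above 0.1, which meets the rule for pairing; the reported comparison of these groups has no block, and the counts of the fit with the block are given beside it; the numbers of the empty vector libraries correlated negatively with those of both other groups (−0.202 to −0.435). Alternatives were RLE factors, DESeq2 1.42.0, other filters, a replicate block, fits of 6 libraries, length and GC offsets, a surrogate variable (sva 3.50.0) and leaving out each library. A block in the 6 mutant and wildtype libraries and the sum of mutant replicates 1 and 2 were added after seeing the data. All called members were named with their values, as were the member with the smallest p of each role and the 3 called genes with the smallest p of each pathway list; a few others were named after their values were seen. The members and lists were chosen with earlier results of these data known.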

Additional observations from a re-analysis of the deposited data

How the results depend on the processing

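The cause of the changes below was not tested. For the wildtype over the empty vector, 7 of the 47 genes were higher and 1 lower; these counts were 15 and 2 with length and GC offsets, 14 higher with the offsets and the replicate block, and 12 and 3 with 1 surrogate variable. With the replicate block in all 9 libraries they were 6 and 1. Over all tested genes, 1834 were higher with the offsets and 1830 lower with the surrogate variable, against 1137 and 1186. Of the 58 pathway genes, 4 were higher and 6 lower; 7 were higher in DESeq2, 15 and 11 with the offsets, 13 higher with the offsets and the block, and 9 and 13 with the surrogate variable.

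For the mutant over the empty vector, 1 of the 47 genes (Orc4) and 3 pathway genes were lower without the low-count filter. Over all tested genes, 21 were higher and 6 lower; these counts were 63 and 39 in DESeq2, 119 and 296 without the filter, 12 and 2 with the block, 39 and 16 with the offsets, 13 lower with the offsets and the block, 12 lower with the surrogate variable, and 9 and 2 with mutant replicates 1 and 2 summed. With the offsets, and with the offsets and the block, the log2 fold change turned in sign for Rfc4 (0.1563 and 0.1536), Rpa3 (0.2544 and 0.2495), Rrm2 (0.0681 and 0.069) and Chaf1a (−0.0178 and −0.0225).

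For the mutant over the wildtype, 2 of the 47 genes were higher and 11 lower; 1 was higher with RLE factors, 4 with the stricter filter and 4 with the offsets. These counts were 5 and 20 with the surrogate variable, 7 and 22 with the replicate block in 6 libraries, 2 and 8 with the block in all 9, and 1 and 5 with mutant replicates 1 and 2 summed. Over all tested genes, 1313 were higher and 1267 lower, against 2059 and 1984 with the surrogate variable, 2323 and 2417 with the block in 6 libraries and 779 and 772 with the sum. Of the pathway genes 8 were higher and 7 lower; 5 were higher with RLE factors, 4 with the block in all 9 libraries, 11 were lower with the offsets, and the counts were 17 and 14 with the surrogate variable, 21 and 19 with the block in 6 libraries and 2 and 4 with the sum.

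Leaving out 1 library at a time, genes of the 47 called with the wildtype over the empty vector ranged from 5 to 12 higher and 0 to 2 lower, with the mutant over the empty vector from 0 to 1 and 0 to 2, and with the mutant over the wildtype from 1 to 4 and 5 to 16; the median of that last comparison ran from −0.1704 to −0.0857. Over all tested genes the ranges were 732 to 1614 and 655 to 1641, 5 to 227 and 2 to 610, and 693 to 1581 and 778 to 1577, and for the pathway genes 4 to 7 and 2 to 8, 0 to 1 and 0 to 4, and 2 to 10 and 4 to 10. The highest counts of the mutant over the empty vector came without empty vector replicate 3, and those of the 47 genes with the wildtype over the empty vector without wildtype replicate 3. With 3 libraries a group, 33, 41 and 27 of the 47 genes had an interval within 1.5-fold in the 3 comparisons. For these genes the interval left out changes beyond 1.5-fold in either direction. Smaller changes may have gone without a call, and the power to detect them was not tested.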
